A study of Mus musculus with 2 samples.

Results

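A set of 45 genes that carry out mitosis were followed in poly(A) RNA of the adult mouse spleen. They were chosen by symbol, from the function of their products, and all 45 were found among the 43346 genes of the gene tables. Both libraries came from spleen tissue of C57BL/6J mice at 8 weeks of age, littermates of both sexes per the labels, with no genetic change and no treatment given. The labels number them as biological replicates of 1 group, called library 1 and library 2 here. Both carry the same donor entry in the labels, so the differences between them describe these libraries and no condition. Ratios are library 1 over library 2.

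In dividing cells, cyclin A and cyclin B bind the kinase Cdk1 and, once Cdc25 phosphatases have freed that kinase of its inhibitory phosphates, start mitosis. The spindle checkpoint then holds the anaphase-promoting complex in check until every kinetochore is attached, after which Cdc20 and Ube2c let this complex mark cyclin B and securin for destruction and the sister chromatids separate. In the adult mouse, the spleen also makes red blood cells, and erythroid precursors, activated B cells of germinal centres and young plasma cells are among its known dividing cells. In a bulk tissue, fewer dividing cells and less RNA per dividing cell cannot be told apart.

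Many genes of this kind share a promoter element named CHR, with the letters TTTGAA, which the DREAM and MuvB complexes are known to bind, often near CCAAT boxes bound by the factor NF-Y. RefSeq promoter windows, from 250 bases before to 50 bases after a gene's start on GRCm38.p6, were at hand for 37 of the 45 genes. The other 8 were Ccna2, Cdc25c, Aurkb, Incenp, Spc24, Tpx2, Kif20a and Smc4. The stretches below are shown because they hold both elements side by side in bases before the start that no annotated exon covers. They read 5′ to 3′ on the gene's strand, with TTTGAA or its complement TTCAAA, and CCAAT or its complement ATTGG, in capitals. A further TTTGAA of Cdk1, nearer the start, lies outside the stretch shown. They belong to Cdc20 (chr4:118437353-118437472, minus strand), Cdk1 (chr10:69352939-69353058, minus strand), Top2a (chr11:99024190-99024309, minus strand) and Kif11 (chr19:37376262-37376381, plus strand).
Cdc20: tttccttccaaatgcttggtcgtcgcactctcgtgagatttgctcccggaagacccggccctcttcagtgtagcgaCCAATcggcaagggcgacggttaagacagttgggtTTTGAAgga
Cdk1: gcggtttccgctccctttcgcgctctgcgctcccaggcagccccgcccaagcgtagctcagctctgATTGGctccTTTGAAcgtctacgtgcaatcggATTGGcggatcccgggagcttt
Top2a: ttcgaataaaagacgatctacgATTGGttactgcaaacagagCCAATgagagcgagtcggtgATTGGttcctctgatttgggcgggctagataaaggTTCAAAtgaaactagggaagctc
Kif11: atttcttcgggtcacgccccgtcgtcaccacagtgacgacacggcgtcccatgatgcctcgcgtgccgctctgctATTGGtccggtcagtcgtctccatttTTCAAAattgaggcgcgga

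TTTGAA was present on either strand in 27 of the 37 promoters, which is 73.0%. It was present in 13.9% of the 9125 promoters of protein-coding genes detected in both libraries, and in 20.2% of all 27025 promoters in the table. Within 50 bases of the start on either side it was found in 24 of 37 promoters, 64.9%, against 3.43% of those of the detected genes. The 10 promoters without it were those of Birc5, Bub1, Ccnb1, Cdc25b, Cenpe, Mad2l1, Ncaph, Nuf2, Nusap1 and Pttg1, which says only that these letters are not in this window. CCAAT was present in 28 of 37 promoters, 75.7%, against 42.3% of those of detected genes, and within 50 bases of the start in 19, 51.4%, against 17.0%. Both elements stood in the same window in 24 of 37 promoters, 64.9%, against 7.97% over all 27025 genes with a window. For this pair the share among detected genes was not computed. The letters GGCGG, searched for the companion element named CDE, were in 34 of 37 promoters, 91.9%, and in 84.9% of those of detected genes, and within 50 bases of the start in 23, 62.2%, against 69.4%, so this short motif separated the genes little. Among 36 promoters of DNA replication genes, TTTGAA was in 7, which is 19.4%, and within 50 bases of the start in 4, which is 11.1%. Among 65 promoters of further mitotic genes it was in 34, which is 52.3%, and within 50 bases of the start in 27, which is 41.5%, so it was common in mitotic genes beyond these as well. CCAAT was in 22 of the 36 replication promoters, 61.1%, and in 42 of the 65 further mitotic ones, 64.6%. Within 50 bases of the start it was in 14 of the 36, 38.9%, and in 31 of the 65, 47.7%. A match is a description of the letters and no evidence that a factor binds there.

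**Figure D1:**
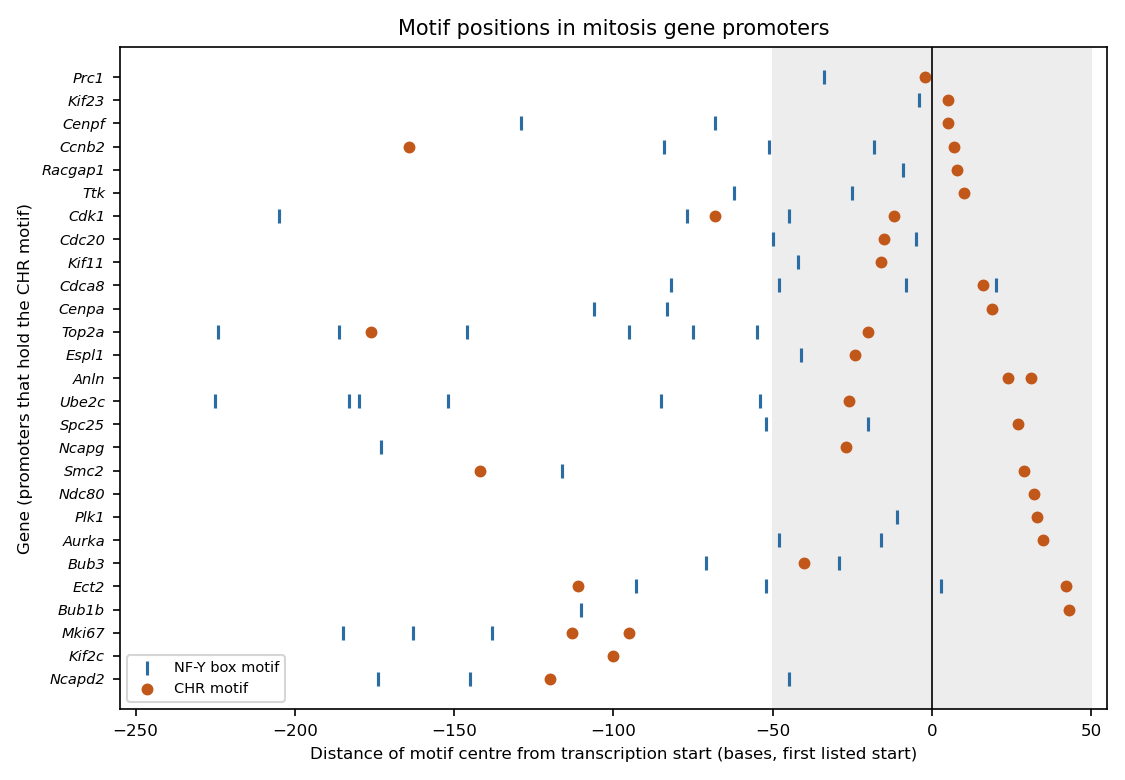
Positions of the CHR motif (orange points) and the CCAAT-box motif bound by NF-Y (blue ticks) on either strand in the 27 mitosis gene promoters that hold the CHR motif, as the distance in bases from the first listed start. In 24 of these promoters a CHR motif lies inside the grey band, within 50 bases of the start.

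Levels are given in TPM, a measure of transcript abundance brought to the same total in each library, which corrects for transcript length and so lets genes be compared. Of the 45 genes, 34 reached 1 TPM in both libraries, the limit used for detection, as did 53.9% of the 21474 protein-coding genes. The median gene had 5.92 TPM in library 1 and 4.82 TPM in library 2 (5.37 ± 0.778, SD, n = 2), and 16 of the 45 lay at or above 11.6 TPM, the median of the detected protein-coding genes. The highest mean level was 283 times the lowest. The order of the genes was nearly the same in the libraries, with a Spearman rho of 0.982 across the 45 genes, which are not independent replicates. The 9 genes on chromosome 2 were the most on any of the 15 chromosomes concerned, and none was on X or Y.

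**Figure D2:**
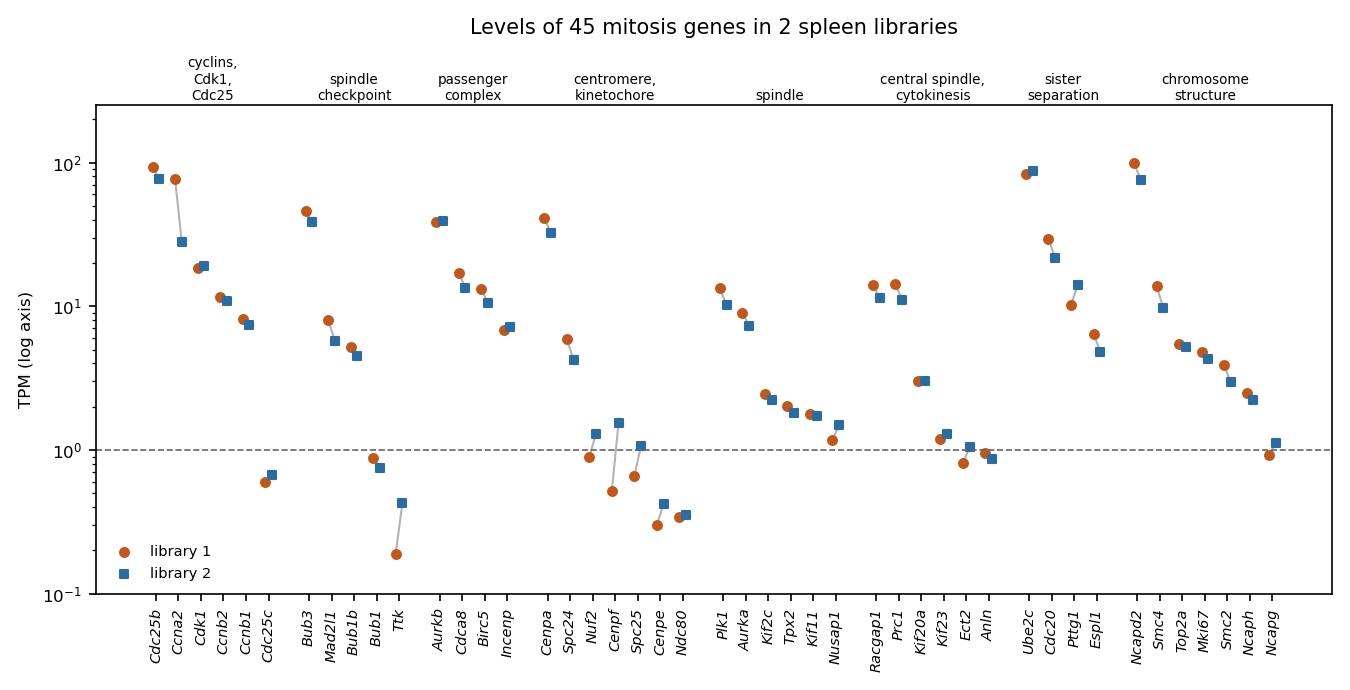
TPM of each of the 45 genes on a log axis in library 1 (orange circles, left) and library 2 (blue squares, right), grouped by role; the dashed line marks 1 TPM. The libraries lie close to each other for most genes, with wide gaps for Ccna2, Cenpf and Ttk.

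The ratio between the libraries was tested on expected counts, the authors' estimated numbers of reads per gene, with an exact binomial test and Benjamini-Hochberg adjustment over all 17547 genes with 10 or more counts. By this test 14 of the 45 genes were higher in library 1, where 26.6% of all genes tested were, and 9 were lower, where 24.1% of all genes were. The other 22 did not pass. Since 50.7% of all genes passed in either direction at this depth, the 23 of the 45 mitosis genes are near that background. The median log2 ratio was -0.04 for the 45 genes and -0.01 over all genes tested, and the median size of the ratio, regardless of sign, was 0.18 on the log2 scale against 0.25 over all genes. A difference of more than 2-fold with a passing test was found for 1 of the 45 genes, Ttk, and for 5.72% of all genes. With 1 library on each side no ratio has a replicate check. On the TPM scale library 1 was higher for 28 of the 45 genes, 62.2%, and for 68.4% of the detected protein-coding genes, whose median log2 TPM ratio was 0.149. Globin and pancreatic acinar genes held 29.05% of TPM in library 1 and 37.96% in library 2, and the part of this in the shift of TPM was not tested.

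**Figure D3:**
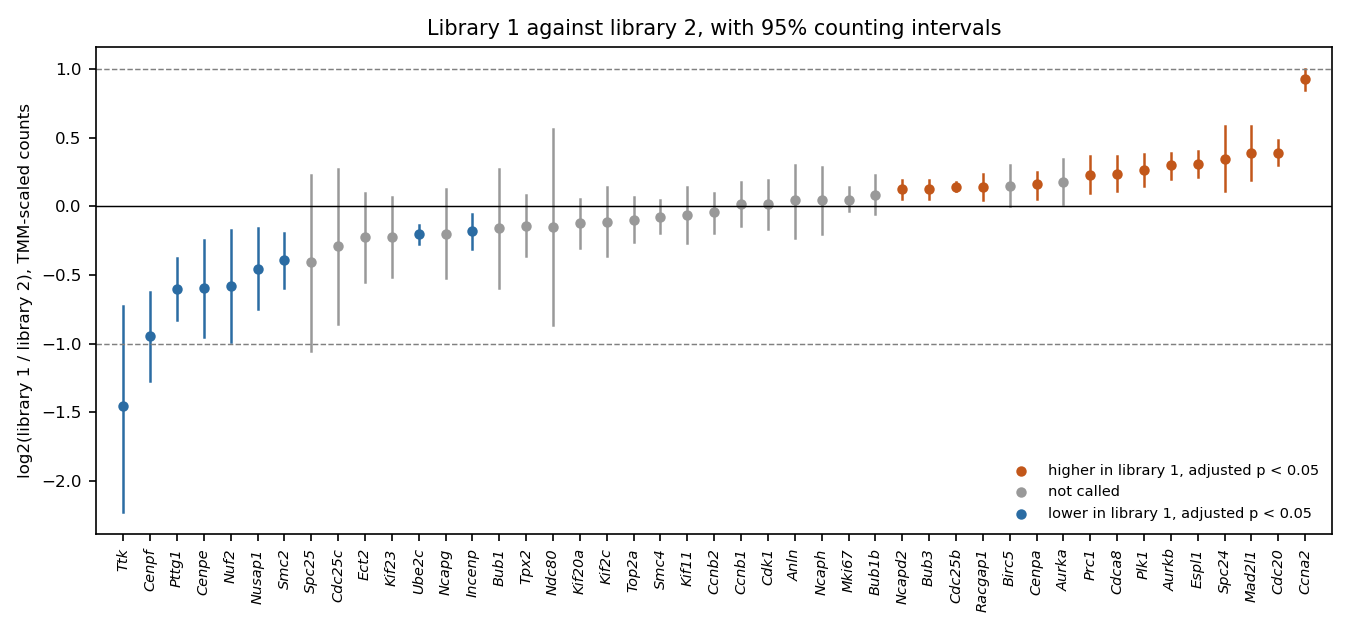
Log2 ratio of library 1 over library 2 for each gene, from TMM-scaled counts with no prior count, with exact 95% counting intervals; dashed lines mark 2-fold. Genes called higher (orange) lie at small positive ratios apart from Ccna2, and Ttk lies lowest with the widest interval.

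Among the cyclins and their kinase, Ccna2, cyclin A2, which acts in S phase and at the entry into mitosis, had 76.2 TPM in library 1 and 27.8 TPM in library 2. Its counts were 3811 in library 1 and 2037 in library 2, a fold of 1.9 with a 95% counting interval of 1.8 to 2.0 (exact binomial test with Benjamini-Hochberg adjustment, adjusted p = 4.39e-124), the highest ratio of the 45 genes. Cdk1 had 18.5 TPM in library 1 and 19.1 TPM in library 2. Its cyclin B partners were lower in gene-level TPM than the kinase, with 11.6 and 11.0 TPM for Ccnb2 and 8.11 and 7.45 TPM for Ccnb1 in libraries 1 and 2. On complete coding transcripts alone the order turned, with 11.6 and 11.0 TPM for Ccnb2 and 7.95 and 7.01 TPM for Cdk1 in libraries 1 and 2. None of these 3 genes differed beyond counting error, and the fold for Ccnb1 had an interval of 0.906 to 1.13. Ccnb1 was also the only one of the 45 genes whose expected counts, 674.18 in library 1 and 675.89 in library 2, were not whole within 0.01, so part of its reads was divided with other genes. Between Cdc25b and Cdc25c, the genes of Cdk1-activating phosphatases among the 45, the levels were far apart. Cdc25b had 92.7 TPM in library 1 and 77.0 TPM in library 2, whereas Cdc25c had 0.60 TPM in library 1 and 0.67 TPM in library 2. The ratio of Cdc25b to Cdc25c was therefore 154 in library 1 and 115 in library 2. Cdc25a, which is not among the 45 genes, had 3.64 TPM in library 1 and 2.72 TPM in library 2. Cdc25b was called higher with a fold of 1.1 (interval 1.08 to 1.13, adjusted p = 8.26e-13 by the exact binomial test with Benjamini-Hochberg adjustment).

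Of the spindle checkpoint genes, Bub3, which takes part in bringing Bub1 and BubR1 to kinetochores, stood well above the others. It had 45.8 TPM in library 1 and 38.6 TPM in library 2, or 8.86 and 8.63 times the level of Bub1b, which encodes BubR1 and had 5.17 and 4.47 TPM in libraries 1 and 2. Mad2l1, the gene of the Cdc20 inhibitor Mad2, had 8.03 TPM in library 1 and 5.75 TPM in library 2 and was called higher, as was Bub3. The checkpoint kinase genes were below 1 TPM in both libraries, Bub1 with 0.88 TPM in library 1 and 0.75 TPM in library 2. Ttk, which encodes the kinase Mps1 that starts checkpoint signalling, had 0.19 TPM in library 1 and 0.43 TPM in library 2, the lowest mean of all 45 genes. Its counts of 22 in library 1 and 61 in library 2 gave a fold of 0.365 with an interval of 0.214 to 0.604 (exact binomial test with Benjamini-Hochberg adjustment, adjusted p = 7.98e-05).

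The chromosomal passenger complex, which corrects faulty attachments and acts in cytokinesis, was among the better expressed groups, with a median of 15.2 TPM in library 1 and 12.0 TPM in library 2. Its kinase gene Aurkb led in gene-level TPM, with 38.3 TPM in library 1 and 39.3 TPM in library 2. Cdca8, which encodes borealin, had 17.2 TPM in library 1 and 13.4 TPM in library 2, and Birc5, which encodes survivin, had 13.2 TPM in library 1 and 10.6 TPM in library 2. The scaffold Incenp was the lowest, with 6.86 TPM in library 1 and 7.16 TPM in library 2. Aurkb and Cdca8 were called higher and Incenp lower, by log2 ratios of 0.29, 0.24 and -0.18. Aurkb was called higher by counts although its TPM was slightly lower in library 1, and its transcripts were held in different proportions, as given below.

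The centromere and kinetochore genes, which link chromosomes to spindle fibres, had the lowest median of the 8 role groups, 0.66 TPM in library 1 and 1.30 TPM in library 2. Cenpa, the histone H3 variant that marks centromeres, was the highest of them, with 41.3 TPM in library 1 and 32.1 TPM in library 2. Of this, complete coding transcripts held only 9.69 TPM in library 1 and 8.47 TPM in library 2. The 4 subunits of the Ndc80 complex, which grips spindle microtubules, are needed in equal numbers in the complex, but their levels were spread. Spc24 had 5.92 TPM in library 1 and 4.25 TPM in library 2, against 0.34 and 0.35 TPM for Ndc80 itself. Nuf2 had 0.89 TPM in library 1 and 1.30 TPM in library 2, and Spc25 had 0.66 TPM in library 1 and 1.07 TPM in library 2. Spc24 was thus 17.4 times Ndc80 in library 1 and 12.1 times in library 2. Of the large kinetochore proteins, the motor Cenpe had 0.30 TPM in library 1 and 0.42 TPM in library 2, and Cenpf had 0.52 TPM in library 1 and 1.53 TPM in library 2. Cenpe, Cenpf and Nuf2 were called lower, with log2 ratios of -0.59, -0.93 and -0.57, while Cenpa and Spc24 were called higher, with 0.16 and 0.34. Ndc80 had only 33 counts in library 1 and 37 in library 2, so a fold anywhere from 0.548 to 1.48 was within its counting interval.

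Among the spindle genes, Plk1, a kinase with tasks from mitotic entry to cytokinesis, had 13.3 TPM in library 1 and 10.2 TPM in library 2 and was called higher (log2 ratio 0.26). Aurka, the kinase of spindle poles, had 9.04 TPM in library 1 and 7.27 TPM in library 2, and its activator Tpx2 had 2.03 TPM in library 1 and 1.82 TPM in library 2. The motor Kif11, which pushes spindle poles apart, had 1.77 TPM in library 1 and 1.71 TPM in library 2. Kif2c, which shortens microtubules at centromeres, had 2.45 TPM in library 1 and 2.22 TPM in library 2. None of these 4 passed the test, Aurka with an adjusted p of 0.0513 by the exact binomial test with Benjamini-Hochberg adjustment. Nusap1, which bundles spindle microtubules, had 1.18 TPM in library 1 and 1.49 TPM in library 2 and was called lower (log2 ratio -0.45). A stretch of 172 bases of its exons also belongs to the neighbouring gene Oip5 on the other strand.

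The genes of the central spindle and cytokinesis spanned a wide range. Racgap1, the GTPase-activating subunit of centralspindlin, had 14.1 TPM in library 1 and 11.4 TPM in library 2, and Prc1, which bundles the central spindle, had 14.2 TPM in library 1 and 11.1 TPM in library 2. Both were called higher, with log2 ratios of 0.14 and 0.23. The motor Kif23, which joins Racgap1 in centralspindlin, had only 1.2 TPM in library 1 and 1.29 TPM in library 2, so Racgap1 was 11.7 times Kif23 in library 1 and 8.86 times in library 2. Kif20a, which carries passenger proteins to the central spindle, had 3.0 TPM in library 1 and 3.01 TPM in library 2. Ect2, the activator of RhoA at the cleavage site, had 0.81 TPM in library 1 and 1.05 TPM in library 2, and the ring scaffold Anln had 0.95 TPM in library 1 and 0.86 TPM in library 2. None of Kif23, Kif20a, Ect2 and Anln passed the test. Prc1 shares 671 bases of its leading transcript with Rccd1 on the other strand (14.6 TPM in library 1 and 13.2 TPM in library 2), and Kif20a shares 829 bases with Cdc23 (21.2 TPM in library 1 and 20.5 TPM in library 2). The strand setting of the authors' counting is not stated, so the levels of Prc1 and Kif20a are uncertain to that extent. The same holds for Ncapg, a condensin gene described below, whose leading transcript shares 769 bases with Lcorl on the other strand (0.78 TPM in library 1 and 0.67 TPM in library 2).

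Sister separation had the highest group median, 19.7 TPM in library 1 and 17.9 TPM in library 2, and all 4 of its genes passed the test, 2 in each direction, where 50.7% of all genes tested passed. Ube2c, the ubiquitin-conjugating enzyme of the anaphase-promoting complex, had 83.6 TPM in library 1 and 87.4 TPM in library 2, and its counts of 3052 in library 1 and 3563 in library 2 were called lower (log2 ratio -0.20). Cdc20, the activator of that complex, had 29.2 TPM in library 1 and 21.8 TPM in library 2 and was called higher (0.39). Espl1, the protease separase, had 6.46 TPM in library 1 and 4.82 TPM in library 2 and was higher (0.31), while Pttg1, its inhibitor securin, had 10.2 TPM in library 1 and 14.0 TPM in library 2 and was lower (-0.60). Separase and securin thus differed between the libraries in opposite directions. Fzr1, the activator that takes over from Cdc20 and also acts outside mitosis, was at 3.96 times the level of Cdc20 in library 1 and 5.23 times in library 2.

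Of the chromosome structure genes, the proliferation marker Mki67 had 4.83 TPM in library 1 and 4.31 TPM in library 2, and Top2a, the topoisomerase that untangles sister chromatids, had 5.49 TPM in library 1 and 5.18 TPM in library 2. Neither passed the test, and the interval of the fold for Mki67 was 0.976 to 1.10. Top2b, the form found in resting cells too, was higher in level than Top2a, which was at 0.507 of it in library 1 and 0.855 in library 2. On complete coding transcripts alone Top2a was at 0.187 of Top2b in library 1 and 0.334 in library 2. The 5 subunits of condensin I, which compacts chromosomes, were the most uneven complex. Ncapd2 had 99.8 TPM in library 1 and 75.5 TPM in library 2, the highest mean of all 45 genes. Smc4 had 13.9 TPM in library 1 and 9.71 TPM in library 2, and Smc2, its partner, had 3.88 TPM in library 1 and 2.96 TPM in library 2. Ncaph had 2.51 TPM in library 1 and 2.21 TPM in library 2, and Ncapg had 0.92 TPM in library 1 and 1.11 TPM in library 2. Ncapd2 was thus 109 times Ncapg in library 1 and 68.0 times in library 2. By counts Ncapd2 was called higher (log2 ratio 0.12) and Smc2 lower (-0.39), the reverse of the TPM of Smc2.

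The transcript tables showed where part of this unevenness lay. The 45 genes have 227 annotated transcripts, and a complete coding transcript is one that GENCODE M21 types as protein coding with both ends of its reading frame and mRNA present. In 9 of the 45 genes the transcript with the largest mean share of TPM over the libraries was not a complete coding one. Of these, 8 were among the 34 detected genes, where 17.4% of all detected protein-coding genes had such a leading transcript. For Ncapd2 it was Ncapd2-208, a retained-intron model of 480 bases inside the gene (chromosome 6, 125170941 to 125171806, mm10), which held 57.57% of TPM in library 1 and 51.92% in library 2. For Ccna2 it was Ccna2-202, a retained-intron model of 856 bases (chromosome 3, 36570451 to 36571964), with 81.06% in library 1 and 64.55% in library 2. For Cenpa it was Cenpa-202, typed as subject to nonsense-mediated decay, with 69.00% in library 1 and 53.87% in library 2. The others were Cdk1-203, a retained intron of 378 bases, Top2a-207 and Smc2-203, processed transcripts of 803 and 643 bases, and the incomplete coding models Cenpf-202, Prc1-208 and Smc4-206. By single libraries, Cdk1-203 (40.77% in library 1, 52.18% in library 2) and Top2a-207 (35.55% and 42.85%) led in library 2 alone. Smc2-203 (69.58% in library 1, 46.63% in library 2) led in library 1 alone.

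Counted over complete coding transcripts alone, Ncapd2 had 14.6 TPM in library 1 and 12.7 TPM in library 2, and moved from rank 1 to rank 7 of the 45 genes, while Ube2c took the first rank. The complete coding transcripts of Ncapd2 held 14.6% of its TPM in library 1 and 16.8% in library 2 but 68.0% and 70.1% of its counts, since TPM divides by length and the leading model is short. Condensin I was more even on this scale, with Ncapd2 at 16.6 times Ncapg in library 1 and 14.3 times in library 2. The 4 Ndc80 subunits stayed as uneven as before, with Spc24 again at 17.4 times Ndc80 in library 1 and 12.1 times in library 2. Ccna2 had 14.3 TPM of complete coding transcripts in library 1 and 9.62 TPM in library 2, a log2 ratio of counts of 0.45 against 0.92 for the whole gene. Its retained-intron model had 1912.84 expected counts in library 1 and 623.29 in library 2. For Cenpa the direction turned, with a log2 ratio of -0.26 for complete coding transcripts against 0.16 for the gene. Smc4 had 2.76 TPM of complete coding transcripts in library 1 and 3.99 TPM in library 2 and was called lower on this scale (log2 ratio -0.57), as it was not for the whole gene (-0.08). The sum over all 45 genes was 718.1 TPM in library 1 and 586.8 TPM in library 2, of which complete coding transcripts held 463.5 TPM in library 1 and 405.4 TPM in library 2.

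**Figure D4:**
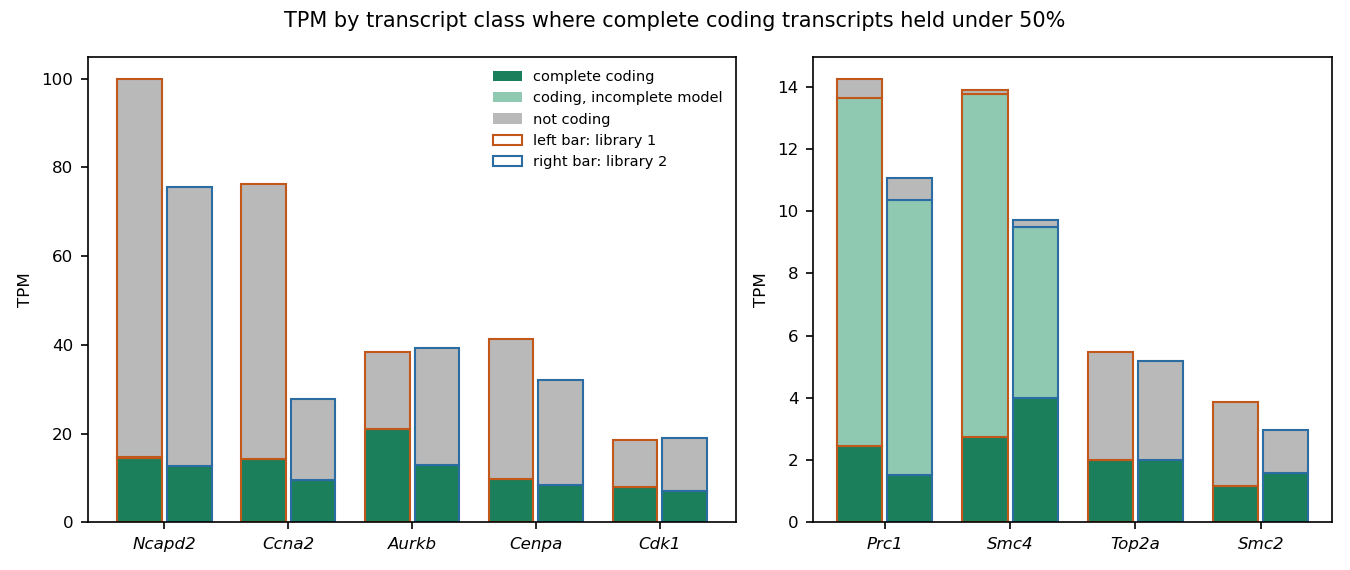
TPM of complete coding transcripts (dark green), coding transcripts with an incomplete model (light green) and transcripts that are not coding (grey) for the 9 detected genes in which complete coding transcripts held under 50% of TPM, with library 1 as the left bar and library 2 as the right bar. Non-coding models make up most of Ncapd2, Ccna2 and Cenpa, and incomplete coding models most of Prc1 and Smc4.

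These 9 genes are 9 of the 34 detected, where 19.9% of the 11572 detected protein-coding genes had under 50% of TPM in complete coding transcripts. Of the remaining genes, Cenpf, which was not detected, held 42.3% in library 1 and 24.3% in library 2. In library 1 alone Bub1 held 47.7% and Ttk 36.8%, both also not detected. Ccnb1 held 64.5% in library 1 and 60.8% in library 2. The median over all 45 was 95.1% in library 1 and 96.3% in library 2, beside 94.7% over detected genes. The leading transcript differed between the libraries in 8 of the 45 genes, 6 of them among the detected genes, where 9.72% of all detected genes did so. Aurkb-201, the full-length form, held 53.58% of Aurkb's TPM in library 1 and 32.35% in library 2, while the processed transcript Aurkb-204 of 615 bases held 33.53% in library 1 and 47.77% in library 2. By complete coding transcripts Aurkb had 21.1 TPM in library 1 and 12.9 TPM in library 2, where Cdca8 stood above it with 13.2 TPM. Kif20a was assigned to Kif20a-201 at 99.99% in library 1 and to Kif20a-202 at 100% in library 2; the models are of 3567 and 3565 bases, so this is a choice between near-equal models. In Ttk the retained-intron model Ttk-204 held 49.60% of TPM in library 1, from 11.23 expected counts, and 0 in library 2.

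The genes were then grouped by base composition. Of the 15 genes whose longest complete coding transcript had under 45% G and C, 1 was higher and 6 were lower. Their median log2 ratio was -0.20. Among all 3157 tested protein-coding genes of that class 13.4% were higher and 35.0% lower, with a median of -0.17. Of the 15 genes from 45% to 50%, 3 were higher and 1 lower, with a median of 0.01; among all 3709 genes of that class 20% were higher and 31.4% lower, with a median of -0.07. Of the 15 genes at 50% or more, 10 were higher and 2 lower, with a median of 0.14. Among all 8131 genes of that class 39.0% were higher and 17.7% lower, with a median of 0.08. The mitosis genes of these classes had median levels of 1.09, 4.57 and 12.8 TPM, from low to high GC content. Level thus rose with GC content, and its part in the number of calls was not tested. Across genes, which are not independent replicates, Spearman's rho between GC content and log2 ratio was 0.533 for the 45 genes and 0.308 for 14997 protein-coding genes, all measured in the same pair of libraries. With the trend over all genes removed, Nuf2, Nusap1 and Smc2 lost their calls and Birc5 and Mki67 gained one, while Ttk (-1.24), Cenpf (-0.81), Cenpe (-0.45), Pttg1 (-0.51) and Ccna2 (1.0) kept theirs. The part of base composition in any ratio was not tested beyond this.

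**Figure D5:**
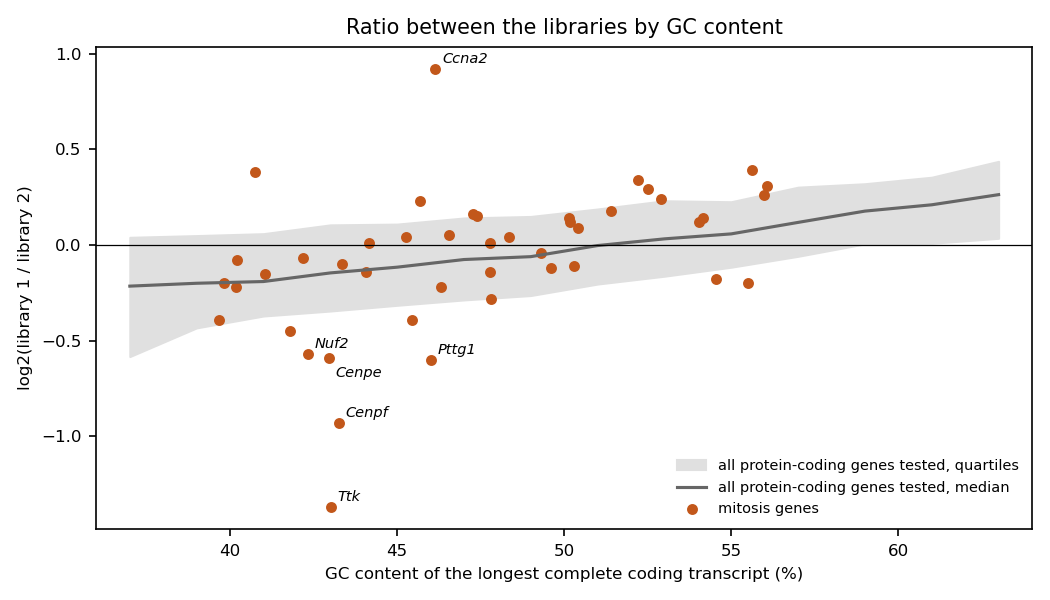
Log2 ratio of library 1 over library 2 against the GC content in percent of the longest complete coding transcript, for the 45 mitosis genes (orange points) and as the median (line) and quartiles (grey band) of all tested protein-coding genes in bins of GC content. Both slope upwards, and Ccna2, Pttg1, Cenpf and Ttk lie far from the line.

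Other cell cycle genes gave the setting, and their counts are to be read beside the 26.6% of all genes tested that were higher and the 24.1% that were lower. In a list of 78 further mitotic genes, 20 were higher, 7 lower and 50 did not pass of 77 tested, with a median of 2.34 TPM in library 1 and 1.86 TPM in library 2. Its top gene, Ncaph2, the condensin II counterpart of Ncaph, had 120 TPM in library 1 and 106 TPM in library 2, of which complete coding transcripts held 31.2 TPM in library 1 and 25.1 TPM in library 2. Pmf1, a kinetochore subunit, had 92.5 TPM in library 1 and 58.4 TPM in library 2. Pkmyt1, a kinase that keeps Cdk1 inactive, had 60.5 TPM in library 1 and 37.5 TPM in library 2, and its log2 ratio of 0.57 was called. On complete coding transcripts Pmf1, with 85.7 TPM in library 1 and 54.3 TPM in library 2, and Pkmyt1, with values as for the gene, stood above Ncaph2. The 45 DNA replication genes, which act in S phase, had a median of 9.83 TPM in library 1 and 7.31 TPM in library 2, and 22 were higher, 4 lower and 19 not called, with a median log2 ratio of 0.139. Pold1, the catalytic subunit of DNA polymerase delta, had 165 TPM in library 1 and 164 TPM in library 2, of which complete coding transcripts held 43.4 TPM in library 1 and 38.5 TPM in library 2, and the sliding clamp Pcna had 109 TPM in library 1 and 73.5 TPM in library 2. Of 15 genes of the anaphase-promoting complex, which cells also use outside mitosis, 5 were higher and 8 lower; of 11 cohesin genes 1 was higher, the loader Mau2, and 8 lower. Of 16 regulators of G2 and mitosis 7 were higher and 3 lower, of 7 Cdk inhibitor genes 3 and 0, of 8 genes of G1 cyclins and kinases 4 and 1, and of 8 paralogs with roles outside mitosis 4 and 1.

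Meiotic paralogs of the mitotic genes were mostly near or below the limit of detection. Of 13 such genes, 7 had 0 counts in both libraries, which at 3 counts allows about 0.0322 TPM in library 1, and 0.0289 TPM in library 2, given a transcript of typical length. Among those 7 were Ccna1, the germline cyclin A, and Aurkc, the meiotic Aurora kinase. Stag3 alone reached 1 TPM in both libraries, with 2.05 TPM in library 1 and 2.27 TPM in library 2. Its complete coding transcripts held only 0.24 TPM in library 1 and 0.53 TPM in library 2. Rec8, a meiotic cohesin subunit, had 52 counts in library 1 and 145 in library 2, a log2 ratio of -1.43 (exact binomial test with Benjamini-Hochberg adjustment, adjusted p = 2.46e-10).

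The libraries held 49686344 and 51393345 gene counts in libraries 1 and 2, so 5 of the 45 genes had a mean of under 100 counts. The spleen label was met by Tlx1, which patterns the organ, with 46.0 TPM in library 1 against 33.6 TPM in library 2, while testis markers summed to 0.15 TPM in library 1 and 0.56 TPM in library 2. Pancreatic acinar genes were also present and summed to 96670 TPM in library 1 and 76190 TPM in library 2. The markers of cell types that can hold dividing cells moved with the libraries in different ways. Of the 19 erythroid precursor markers found, of 20 listed, 5 were higher and 13 lower, with sums of 2118 TPM in library 1 and 2626 TPM in library 2. The 5 were Gata1, Klf1, Tal1, Gfi1b and Epor, with log2 ratios of 0.13 to 0.46. Among the 13 lower ones, Alas2, an enzyme of haem synthesis, had 509 TPM in library 1 and 1048 TPM in library 2. Its log2 ratio of -1.16 was the lowest of the list. Tfrc (-0.65), Hemgn (-0.32) and Car2 (-0.1) were also among the lower ones, and Car1 (-0.03) was not called. Of 8 granulocyte precursor markers 4 were higher and 2 lower, with sums of 311.2 TPM in library 1 and 224.7 TPM in library 2. Of 7 germinal centre markers tested 2 were higher and 1 lower, with sums of 40.31 TPM in library 1 and 33.43 TPM in library 2. B cell markers were 4 higher and 6 lower of 10, T cell markers 2 and 5 of 10, plasma cell markers 4 and 1 of 8, progenitor markers 0 and 1 of 6, spleen patterning markers 4 and 0 of 6, acinar markers 3 and 9 of 13, and red pulp macrophage markers 0 and 9 of 10. The part of these cell types in the ratios of the mitosis genes was not tested.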

How the data were processed

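Spleen RNA longer than 200 nucleotides was depleted of ribosomal RNA, selected for poly(A) and read from both ends with 76 nucleotides in stranded libraries, per the labels. The deposited gene and transcript tables, 1 for each library, use mm10 and GENCODE M4. The deposited expected counts are the authors' estimated reads per gene, not normalized. The deposited TPM and FPKM values are scaled for length and depth by the authors, and the deposited percent values give each transcript's share of its gene's TPM. For the aligner, the estimation tool and the strand counted, nothing is given in the sources used here. Spike-ins and entries that are not genes, which held 0.67% of counts in library 1 and 1.242% in library 2, were left out.

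Symbols, positions and transcript types were matched by identifier to GENCODE M21, which found 98.0% of genes. Levels are TPM. Expected counts were rounded, library sizes were scaled with TMM in edgeR 4.0.16 (R 4.3.3), and each gene with 10 or more counts was tested with an exact two-sided binomial test, with Benjamini-Hochberg adjustment over all genes and a threshold of 0.05. Log2 ratios used a prior count of 2; folds with their 95% Clopper-Pearson intervals used none. The test asks whether these libraries differ beyond counting error. Intervals and floors, at 3 counts, leave out every error but that of counting, since PCR copies were not told apart by molecular identifiers, and the spread between the libraries may be partly technical. Motifs were searched in RefSeq promoter windows of 300 bases. Other steps ran in Python 3.11.15 (scipy 1.17.1, pandas 2.3.3, numpy 2.4.6). The test was checked on simulated counts that held counting error alone, which cannot show how it behaves under further spread between libraries.

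The genes, lists and tests were chosen with earlier results of these data known. All 45 mitosis genes were to be named; of every other list, the 3 genes of highest mean TPM and those called with more than a 2-fold difference were eligible, and other genes are named by their role after their values were seen. Alternatives covered scaling, filters, prior count, detection limit, length and GC trends, posterior mean values and complete coding transcripts. Size factors from DESeq2 1.42.0 were nearly equal to those of TMM, at 1.0105 for library 1 and 0.9896 for library 2 by both methods. The junction and contig lists, on mm9, were not used.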

Additional observations from a re-analysis of the deposited data

How the results depend on the processing

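The counts of 14 genes higher and 9 lower stayed within 1.5 times under DESeq2 size factors, total gene counts, upper quartile scaling, other filters, posterior mean counts and removal of the length trend. With the 2-fold limit alone 0 were higher and 1 was lower. With the GC trend removed, an alternative chosen after seeing the data, 16 were higher and 6 lower, and the median log2 ratio was 0.075, against -0.044 as reported and 0.103 from TPM plus 1; Nuf2 (-0.42, adjusted p = 0.0666), Nusap1 (-0.29, 0.0816) and Smc2 (-0.19, 0.105) lost their call in the exact binomial test with Benjamini-Hochberg adjustment. With complete coding transcripts, also chosen after seeing the data, 12 were higher and 11 lower, Cenpa turned to -0.26 (adjusted p = 0.0167 by the same test) and Ncapd2 lost its call (0.08, 0.0548). From TPM plus 1, Aurkb turned to -0.04 and Smc2 to 0.30.

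The median TPM was 8.20 without globin and acinar genes and 4.54 for complete coding transcripts. At 5 TPM 22 genes were detected. The ratio of the highest to the lowest subunit was taken in each library and averaged. With complete coding transcripts it was 2.46 for the passenger complex and 15.4 for condensin I. For a checkpoint complex of Bub3, Bub1b, Mad2l1 and Cdc20, which leaves out Bub1 and Ttk, it was 9.08, and 8.27 from posterior mean TPM. From gene-level TPM it was 5.54 for the passenger complex, 88.2 for condensin I and 8.74 for this checkpoint complex. In single libraries the median TPM was 4.82 to 5.92 and the number detected 34 to 39. The subunit ratio was 12.1 to 17.4 for Ndc80, 5.49 to 5.59 for the passenger complex and 68.0 to 109 for condensin I. It was 8.86 to 11.7 for centralspindlin, 2.28 to 2.57 for cyclin B and Cdk1 and 8.63 to 8.86 for the same checkpoint complex. The number led by a transcript that is not complete coding was 9 in each library. The causes were not tested. No paired analysis was possible because the samples form a single group.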
